A study of Drosophila melanogaster with 2 samples.

Results

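The genes described here encode structural proteins of the insect cuticle, and the sites set beside them were bound by the homeodomain protein Ptx1 in fruit fly embryos. Of 13968 protein-coding genes on the chromosome arms, 95 were chosen by symbol from the Ensembl annotation, 70 whose symbol is Cpr followed by a digit and 25 whose symbol starts with Twdl. The other 13873 coding genes served as the comparison. Binding was measured by chromatin immunoprecipitation and sequencing (ChIP-seq) in whole Drosophila melanogaster embryos aged 0 to 24 h. The flies carried a Ptx1-GFP insertion that makes Ptx1 fused to enhanced green fluorescent protein. The protocol names an antibody to GFP, whereas the antibody field of the labels names Ptx1. There were 2 biological replicates of this 1 group, both with the fusion, and embryos without it were not analysed here.

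The cuticle is the outer coat that the epidermis, trachea, foregut and hindgut secrete, a layered matrix of chitin fibres and protein. Cpr proteins carry the Rebers and Riddiford domain, which binds chitin, and they form the largest family of cuticle proteins in insects. Twdl genes encode Tweedle proteins, a separate insect family of cuticle proteins that is known in Drosophila for larvae with an altered body shape when a member is mutated. Both families arose largely by tandem duplication, so many members lie side by side, and they are transcribed in bursts as each cuticle is laid down. Ptx1 is the fly relative of the vertebrate Pitx factors, whose homeodomain prefers sequences such as TAATCC. Whole embryos mix all tissues and all hours of embryogenesis, so binding in few cells and binding at a low level in many cells cannot be told apart.

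Few of these genes had a reproducible Ptx1 site at their start, and the sites they had lay away from the promoter. Examples of sites are shown first, read from the RefSeq Release 6 (dm6) sequence on the plus strand, 50 bp either side of the summit, which is the highest point of a peak. Capitals mark 4 sets of letters on either strand, which are the Pitx preference TAATCC, its common variant TAAGCC, the homeodomain core TAATTA and the TATA box letters TATAAA. They are letters searched for and not sites shown to be bound. The first 3 are summits that passed the reproducibility threshold, at chr3L:6157744-6157844, at chr3L:7086830-7086930 and at chr3L:16956874-16956974. The last 2, at chr3L:1841831-1841931 and chr3L:4215761-4215861, are the summits of highest reproducibility score, explained below, among unbound members, and both lie in coding exons.
Cpr65Ay: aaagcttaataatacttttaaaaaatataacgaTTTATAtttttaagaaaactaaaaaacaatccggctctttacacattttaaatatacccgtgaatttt
Cpr65Ea: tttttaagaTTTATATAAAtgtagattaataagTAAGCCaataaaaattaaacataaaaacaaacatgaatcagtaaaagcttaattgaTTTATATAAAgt
Cpr73D: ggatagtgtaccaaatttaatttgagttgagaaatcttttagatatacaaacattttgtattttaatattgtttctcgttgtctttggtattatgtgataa
Cpr62Bc, not passing: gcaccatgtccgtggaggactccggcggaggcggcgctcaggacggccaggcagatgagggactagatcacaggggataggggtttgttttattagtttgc
Cpr64Ad, not passing: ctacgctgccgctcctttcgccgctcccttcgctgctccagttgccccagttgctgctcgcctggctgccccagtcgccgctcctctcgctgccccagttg

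The passing windows shown have the lowest GC of the 8 near cuticle genes, with GC contents of 20.8% at Cpr65Ay, 16.8% at Cpr65Ea and 24.8% at Cpr73D. Over all 8 the range was 16.8% to 40.6%. The windows shown that did not pass had 59.4% GC at Cpr62Bc and 69.3% at Cpr64Ad, the highest of the 68 best summits that did not pass, whose median was 53%. TAAGCC stood in 1 of the 8 passing windows near these genes, the one shown for Cpr65Ea, against 4.36% of the 6816 other passing windows. TAATCC stood in 0 of the 8, against 3.81% of the others. TATAAA stood in 4 of the 8, against 23.6% of the others, in windows that averaged 29% ± 8.21 GC (SD, n = 8) near the cuticle genes and 33.3% ± 9.85 elsewhere (SD, n = 6816).

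The starts of the genes themselves are the other sequence that matters here. The next lines run on the gene's strand over 80 bases, ending 20 bases into the transcript, and capitals mark TATAAA. They are the bound Cpr65Ea (chr3L:7086589-7086668, minus strand), the neighbours Cpr67Fa1 (chr3L:10889930-10890009, plus strand) and Cpr67Fa2 (chr3L:10891654-10891733, plus strand), of which only Cpr67Fa1 was bound, and 3 unbound Tweedle genes, TwdlM (chr3R:26619058-26619137, plus strand), TwdlN (chr3R:26631809-26631888, plus strand) and TwdlD (chr3R:26639965-26640044, plus strand).
Cpr65Ea: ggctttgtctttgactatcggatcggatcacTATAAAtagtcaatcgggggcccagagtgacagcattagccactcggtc
Cpr67Fa1: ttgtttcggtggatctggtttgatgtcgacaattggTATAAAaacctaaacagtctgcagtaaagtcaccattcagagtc
Cpr67Fa2: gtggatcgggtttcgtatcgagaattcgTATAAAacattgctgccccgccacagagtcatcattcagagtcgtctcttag
TwdlM: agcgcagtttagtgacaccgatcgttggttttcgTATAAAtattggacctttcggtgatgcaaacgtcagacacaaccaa
TwdlN: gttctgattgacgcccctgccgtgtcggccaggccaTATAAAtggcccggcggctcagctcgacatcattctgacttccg
TwdlD: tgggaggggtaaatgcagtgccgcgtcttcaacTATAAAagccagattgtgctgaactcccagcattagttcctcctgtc

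Each of these starts carries the letters of a TATA box, the element at which the TATA-binding protein sets the start of transcription. Over the whole set, TATAAA stood 45 to 16 bp upstream of a start in 58 of 95 cuticle genes (61.1%), 43 Cpr and 15 Twdl, against 10.1% of the other coding genes. The starts shown are thus not typical of all members. The 37 cuticle genes without TATAAA at that place include 10 of the 25 Twdl genes. They also include 4 of the 7 bound genes, Cpr62Ba, Cpr65Ay, Cpr67Fb and Cpr73D, whose starts are not shown. In the window from 250 bp before to 50 bp after a start, on either strand, TATAAA was in 76.8% of the cuticle genes and 51% of the others. Letters of 2 elements common at housekeeping promoters were rare at the cuticle genes. TATCGATA, bound by DREF, was in 1 of 95 (1.05%) against 10.2% of the others, and GGTCACAC, part of Ohler's motif 1, was in 0 of 95 against 8.75%.

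Shares of promoters with the homeodomain letters were compared in the same window. TAATCC was in 7 of 95 (7.37%) against 11.1%, TAAGCC in 6 of 95 (6.32%) against 14.1%, and TAATTA in 16 of 95 (16.8%) against 24.3%. In the shorter window from 100 bp before to 50 bp after a start these shares were 4.21% against 5.21% for TAATCC, 3.16% against 7.05% for TAAGCC and 8.42% against 8.83% for TAATTA, so that TAATCC and TAATTA lay near the background there. The cuticle promoters were richer in GC, with a median of 45.3% against 38.7%, and had fewer annotated starts, a mean of 1.09 against 1.41 per gene. A match to these letters is a description, and each gene with several starts had several windows in which to find one. In the longer window the remaining motifs lay close to the others, with TCAGT in 54.7% of cuticle genes against 58.5%, GAGAG in 35.8% against 36.2%, and AACCGGTT in 0 against 0.894%. Of the other genes with 1 annotated start, 28% had GAGAG and 52.2% had TCAGT in that window. In the shorter window GAGAG was in 15.8% against 23.9% and TCAGT in 46.3% against 44.4%, so for GAGAG the comparison depends on the window.

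A gene was called bound when the conservative list, the stricter list of reproducible peaks of the series, placed a summit at most 1000 bp from one of its annotated transcription start sites (TSSs). By this rule 7 of 95 cuticle genes were bound (7.37%, exact Clopper-Pearson 95% interval 3.01 to 14.6), against 3722 of 13873 other coding genes (26.8%, interval 26.1 to 27.6). All 7 were Cpr genes, 7 of 70 (10%, interval 4.12 to 19.5). None of the 25 Twdl genes was bound, which allows a share of up to 13.7%. Intervals cover the counting of genes only, and neighbours can share a peak, so the genes are not independent. The peak lists carry no read totals, and depth is unknown.

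Peaks of any strength lay near most of the cuticle genes, as they did near most other coding genes. In the ranked list of the replicate pair, which keeps peaks however weak, 75 of 95 cuticle genes had one inside the same window (78.9%, interval 69.4 to 86.6), against 76.7% of the others. In the ranked list of replicate 2 alone the share was 51.6% against 65.8%, and in that of replicate 1 it was 72.6% against 68.9%. For the pair the share was 81.4% for Cpr (57 of 70) and 72% for Twdl (18 of 25). Of the genes with a ranked summit, 7 of 75 cuticle genes were bound (9.33%), against 35% of the 10644 others. The number of ranked summits near a gene had a median of 2 in both groups.

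In the lists of the replicate pair, agreement between replicates is given by a scaled irreproducible discovery rate (IDR). This score of the authors tends to be higher where a peak ranks high in both replicates alike, and it is capped at 1000. The list of a single replicate carries its own scaled IDR, which does not measure agreement between the 2 replicates. The lowest value in the thresholded lists was 830. Over the 75 cuticle genes with a ranked summit the best scaled IDR had a median of 99, with quartiles of 53 and 240. Over the 10644 other genes the median was 232, with quartiles of 72 and 1000. By family the median was 107 for Cpr and 87.5 for Twdl, where Twdlbeta was highest at 505. The lowest value in the list, 26, was the best that 17 cuticle genes reached.

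**Figure D1:**
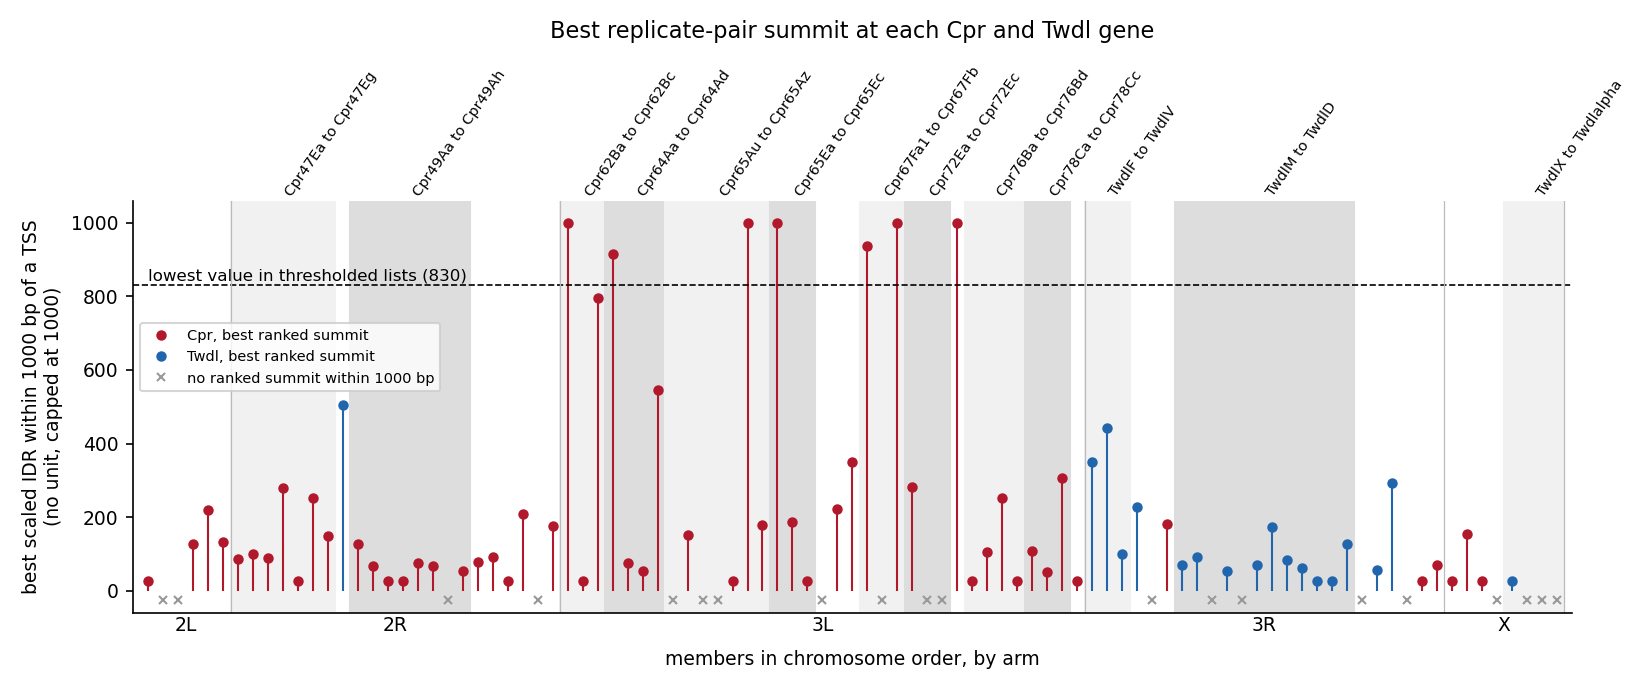
Best scaled IDR of a replicate-pair summit within 1000 bp of a TSS (vertical axis, no unit, capped at 1000) for each of the 95 Cpr and Twdl genes in chromosome order by arm, with clusters of 3 or more genes in alternating shading and crosses for genes with no ranked summit. The 7 genes above the dashed line at 830 are all Cpr genes on 3L, and most others lie below 300.

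Few genes, cuticle or other, had a best scaled IDR just under the threshold. A best scaled IDR below 540 was found in 66 of 95 cuticle genes (69.5%) against 45.8% of the others. At 540 or more but below 830 there were 2 cuticle genes (2.11%), Cpr62Bc and Cpr64Ad, against 3.59%. No ranked summit was near 20 cuticle genes (21.1%) against 23.3% of the others. With the looser minimum of 540 in place of 830, 9 of 95 cuticle genes had a summit (9.47%), against 31% of the others.

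**Figure D2:**
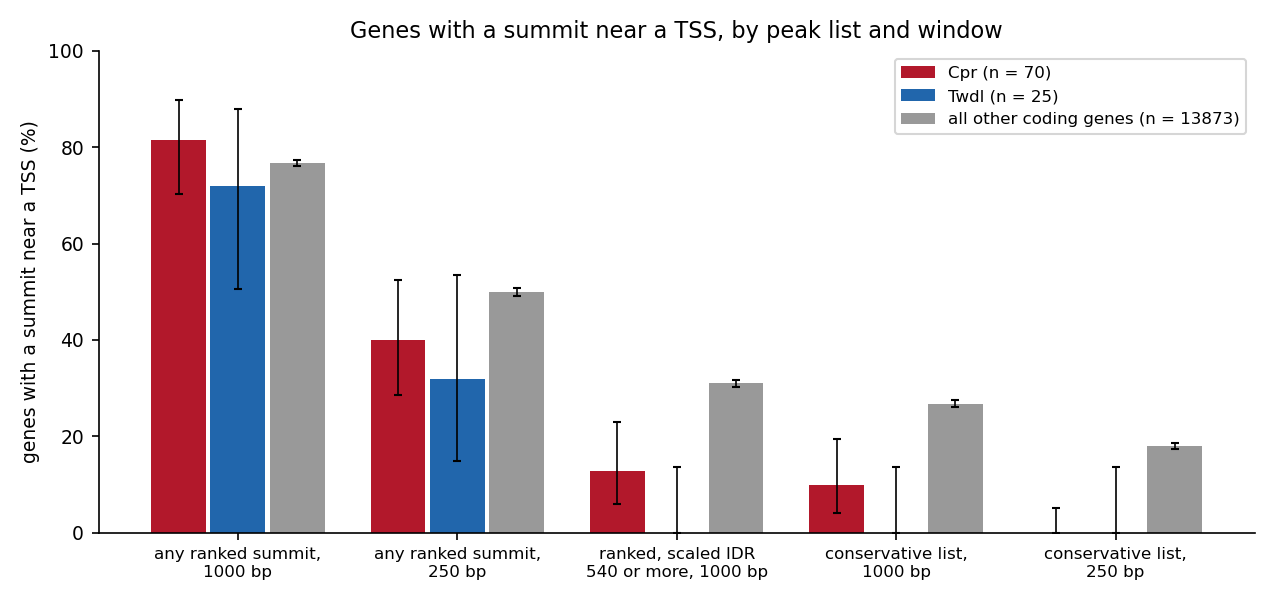
Share of genes (vertical axis, percent) with a summit near a TSS for Cpr, Twdl and all other coding genes under 5 combinations of peak list and window, with bars for the share and lines for exact Clopper-Pearson 95% intervals over genes. The families reach 81.4% and 72% against 76.7% for any ranked summit within 1000 bp, and 10% and 0% against 26.8% for the conservative list.

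The position of the summits differed as well. Within 250 bp of a TSS the conservative list had a summit for 0 of 95 cuticle genes, which allows a share of up to 3.81%, against 17.9% of the others. The ranked list had one within 250 bp for 36 of 95 (37.9%), against 50%. The 7 bound cuticle genes had their nearest conservative summit 272 to 836 bp from the TSS, with a median of 732 bp, against a median of 164 bp over the 3722 other bound genes. In 5 of the 7 (71.4%) that summit was over 500 bp away, against 14.6% of the others. Their highest peak scores ranged from 69 to 278 with a median of 110, against a median of 180. The peak score is the authors' own measure of the strength of a peak, without a unit, and is read within a list only.

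**Figure D3:**
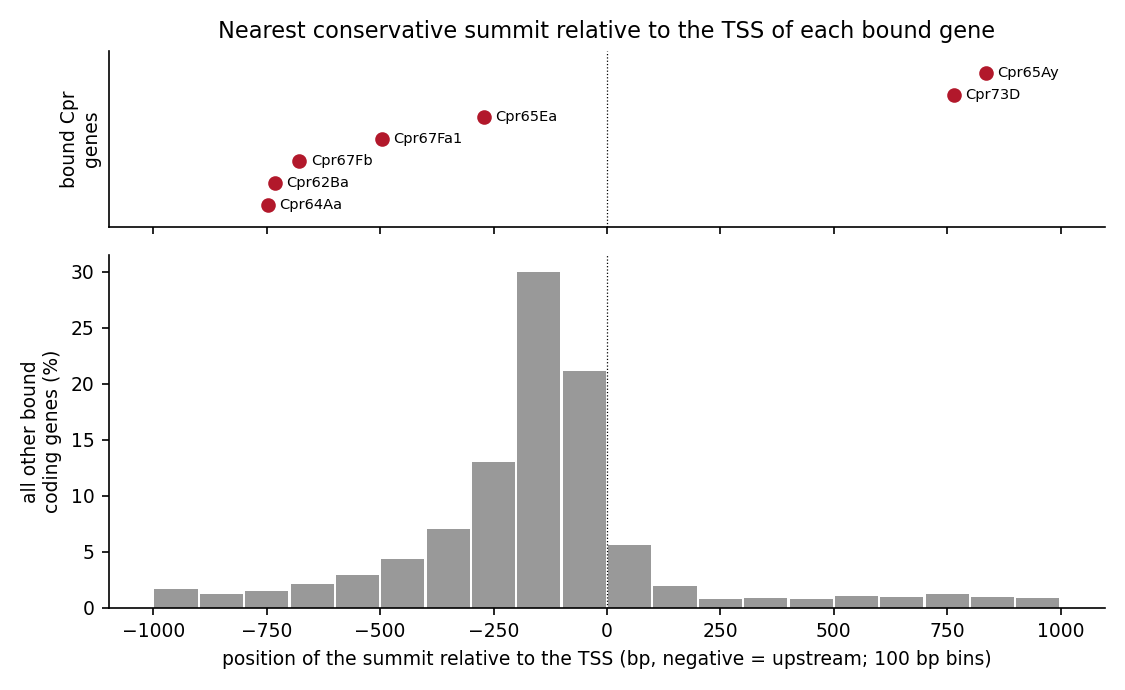
Position of the nearest conservative summit relative to the TSS of each bound gene (horizontal axis, bp, negative upstream), as 1 point per bound Cpr gene above and as the percentage of the 3722 other bound coding genes in bins of 100 bp below. The other genes peak in the 200 bp upstream of the TSS, where no Cpr gene lies.

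Each bound gene is taken in turn by the score of its peak. Cpr73D (FBgn0036680) had the strongest, with a score of 278 at rank 1294 of 6840 conservative peaks. The peak, at chr3L:16956816-16957010, had its summit 765 bp downstream of a Cpr73D start, in an intron. The same position is in an intron of Ogdh, which encodes a subunit of the oxoglutarate dehydrogenase of the citric acid cycle, and the summit was nearer to an Ogdh start, 515 bp upstream of it. Replicate 1 scored the peak 144 in its own list and replicate 2 scored it 131, both past the threshold.

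Cpr65Ay (FBgn0085300) followed with a score of 263 at rank 1411, at chr3L:6157609-6157978. The summit was intergenic, 836 bp from the TSS on its downstream side and past the end of this short gene of 556 bp. It was nearer to the start of CG13297, 417 bp upstream of it. The replicates scored it 146 and 109, past the threshold in both.

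Cpr65Ea (FBgn0035735) was the sole cuticle gene with 2 conservative summits in the window. The stronger scored 151 and lay 930 bp upstream, and the weaker, at chr3L:7086695-7087064, scored 116 and lay 272 bp upstream. For both summits the nearest coding start was that of Cpr65Ea. The replicates scored the farther summit 100 and 50.5 and the nearer one 64.7 and 51.8. Both summits passed the threshold in each replicate, which made Cpr65Ea the only member with a summit within 1000 bp that passed in both replicates and had the member's own start as the nearest.

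The other 4 bound genes had weaker peaks that passed in 1 replicate or in neither. Cpr67Fb (FBgn0036110) had a peak at chr3L:10893310-10893679 with a score of 110, 678 bp upstream, that scored 74 in replicate 1 and 38.9 in replicate 2, where it did not pass. Cpr62Ba (FBgn0035279) had a peak at chr3L:1829489-1829858 with a score of 86.3, in an intron of the gene and 732 bp upstream of its internal start. That peak scored 38.2 in replicate 1, where it did not pass, and 48.9 in replicate 2, where it did.

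Cpr64Aa (FBgn0035510) had a peak at chr3L:4209740-4210109 with a score of 76.7 and a scaled IDR of 915, 747 bp upstream and in an intron of CG43367. It scored 51.8 in replicate 1 and 28.6 in replicate 2, where it did not pass. Cpr67Fa1 (FBgn0036108) had the weakest, at chr3L:10889309-10889678, with a score of 69 at rank 6072, a scaled IDR of 936 and its summit 496 bp upstream. In the replicates' own lists the scaled IDR of this peak was 475 for replicate 1 and 93 for replicate 2. It thus passed in neither, and it was absent from the other thresholded list of the series. In 5 of the 7 bound genes the nearest coding start to the summit was the cuticle gene's own, the exceptions being Cpr73D and Cpr65Ay, which had the highest scores. Of the 3722 other bound genes, 2728 likewise had a summit to which their own start was the nearest coding start.

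**Figure D4:**
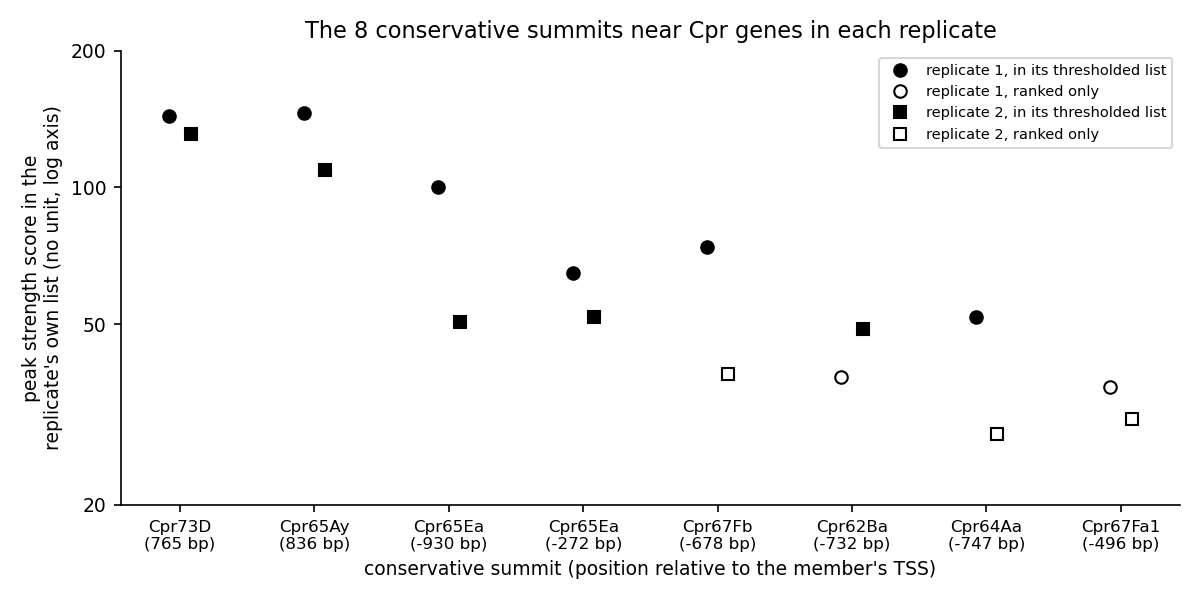
Peak score in each replicate's own list (vertical axis, no unit, log scale) for the 8 conservative summits near Cpr genes, ordered by score in the conservative list, with circles for replicate 1, squares for replicate 2 and open symbols where the replicate's peak did not pass its threshold. The summits of Cpr73D and Cpr65Ay score from 109 to 146 in both replicates, and the other 6 score from 28.6 to 100.

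In each replicate taken alone fewer cuticle genes passed. Replicate 1 had a thresholded summit near 5 of 95 (5.26%) against 23.6% of the others, and replicate 2 near 4 of 95 (4.21%) against 22%. The ranked lists of the replicates differed at these genes. Replicate 1 had a ranked summit near 69 of 95 cuticle genes, whereas replicate 2 had one near 49 of 95. Replicate 1 ranked 68758 peaks and replicate 2 ranked 44653, and the part of list length in this difference was not tested. Both replicates had a ranked summit near 44 of 95 (46.3%) against 54.9%.

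Another 7 cuticle genes had their nearest conservative summit between 1000 and 2000 bp away. The strongest peak within 2000 bp of a cuticle gene was among them, at chr3L:19516601-19516857, with a score of 609 at rank 342. Its summit lay 1601 bp downstream of the start of Cpr76Ba, past the end of the gene, and scored 366 in replicate 1 and 240 in replicate 2. Cpr76Ba remained the nearest coding start to it. Cpr65Av and Cpr65Aw, at 1194 and 1245 bp, share an intergenic peak between them that scored 81.1.

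The rest lay near peaks already described or on another arm. Cpr65Eb, at 1249 bp, is next to the farther summit of Cpr65Ea. Cpr64Ab, at 1615 bp, and Cpr67Fa2, at 1781 bp, are next to the peaks of Cpr64Aa and Cpr67Fb. Cpr100A, at 1895 bp, had a peak with a score of 103 upstream, the only one of the 7 outside 3L. Of the remaining genes, 34 lay between 2000 and 10000 bp from a conservative summit and 47 lay farther. The median distance over all 95 was 8570 bp, against 5020 bp over the other coding genes.

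All 7 bound genes were on 3L, the left arm of chromosome 3. This arm holds 35 of the 95 cuticle genes, of which 7 were bound (20%, interval 8.44 to 36.9), against 26.7% of the other coding genes there. On 2R none of 22 was bound against 26.1% of the others, on 3R none of 24 against 28.1%, on X none of 8 against 28.7%, and on 2L none of 6 against 25.5%. These counts allow shares of up to 15.4% on 2R, 14.2% on 3R, 36.9% on X and 45.9% on 2L. On X and 2L the interval thus contains the share of the others. The limits count genes as independent, but 12 of the 24 on 3R form 1 cluster, and clusters of 7 and 8 genes lie on 2R. They may therefore be too narrow there, and no arm is set apart by them. A ranked summit of the pair was near 20 of 22 cuticle genes on 2R against 79.4% of the other genes there, 28 of 35 on 3L against 75.1%, and 19 of 24 on 3R against 80.3%. On 2L it was near 4 of 6 against 70.5%, and on X near 4 of 8 against 80.7%.

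Chaining members whose gene bodies lie at most 20000 bp apart gave 42 groups, 13 with 3 or more genes, 2 pairs and 27 single genes. The 13 clusters held 64 members, of which 6 were bound (9.38%), in 5 clusters. The 27 other coding genes that overlap those spans were bound in 3 cases (11.1%), TpnC47D, which encodes a troponin C, CG13297 and goe. Among the 27 are cuticle genes outside the rule, namely Lcp65A genes, Acp65Aa and Edg78E, and none of these was bound. The 11.1% is therefore not a share of non-cuticle neighbours. The spans add up to 213 kb and held 10 conservative summits, or 4.68 per 100 kb, against 4.96 per 100 kb over the arms. The density of conservative summits over the clusters was thus close to that over the arms.

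The largest cluster was a run of 12 Tweedle genes on 3R, TwdlM to TwdlD, with no other coding gene and no conservative summit in its 21937 bp. Of these genes 10 had a ranked summit, with a median best scaled IDR of 70.5, and the highest was 173 at TwdlJ. TwdlD is the gene mutated in the original Tweedle larvae, and its best was 128. Some of these genes are near copies, since TwdlB and TwdlL are 84.6% identical, which bears on how reads can be placed. The share of unique 31-base words within 1000 bp of the TSS was 82.7% at TwdlB and 77.8% at TwdlL.

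The other Tweedle genes ran from the strongest to the weakest of the family. TwdlF, TwdlG and TwdlV, also on 3R, all had a ranked summit, and TwdlG reached 443 with a summit in a coding exon 521 bp downstream of a start. The peak score of that TwdlG summit was low, 15.7 at rank 62089 of 91374, against a list median of 22.4. Replicate 1 had no summit within 200 bp of it in its own list, and replicate 2 had one with a scaled IDR of 36. TwdlX, TwdlY, TwdlZ and Twdlalpha on X had a ranked summit near TwdlX only, at 26. Twdlbeta, alone on 2R, had the best of the family, an intergenic summit 240 bp upstream with a scaled IDR of 505. Of the single Tweedle genes TwdlT reached 294, TwdlW 228 and TwdlC 57, and TwdlQ and TwdlE had no ranked summit.

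The Cpr clusters outside 3L were ranked but weak. Cpr47Ea to Cpr47Eg on 2R had 7 genes with 7 ranked, the highest Cpr47Ed at 279, and its 2 conservative summits lay nearest to TpnC47D. Cpr49Aa to Cpr49Ah on 2R had 8 genes with 7 ranked over 38545 bp, the highest Cpr49Aa at 126, and no conservative summit. The peak score of that Cpr49Aa summit was only 12, and Cpr49Aa had no summit within 1000 bp in either replicate's own ranked list. Neither cluster held a bound Cpr gene, and the ranked counts stand beside the 79.4% of other coding genes on 2R with a ranked summit.

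On 3L, Cpr67Fa1 to Cpr67Fb was the cluster with the largest share, 2 of 3 bound. Cpr67Fa1 and Cpr67Fa2 lie side by side, and their gene bodies are 75.6% identical. Cpr67Fa1 had a ranked summit at 936, which lies 496 bp upstream and so outside the sequence compared. Cpr67Fa2 had none within 1000 bp, and its nearest ranked summit was 1118 bp away. Cpr65Ea to Cpr65Ec had 1 of 3 bound and 3 conservative summits in 7839 bp, the third of them with a score of 224 and 2195 bp upstream of Cpr65Eb. Cpr62Ba to Cpr62Bc had 1 of 3 bound, and Cpr62Bc, at 796, was the highest unbound cuticle gene. Cpr64Aa to Cpr64Ad had 1 of 4, with Cpr64Ad at 546.

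Cpr65Au to Cpr65Az, with 7 members in 30348 bp, had 1 bound. This span also holds 11 other coding genes, among them Lcp65A genes, which encode larval cuticle proteins with the same chitin-binding domain, and CG13297 was the single bound one. Cpr65Ax1 and Cpr65Ax2 in this cluster are duplicates with 35.9% and 37% unique 31-base words, and Cpr65Ax2 had a summit at 26 where Cpr65Ax1 had none. Over all members the unique share averaged 97.6%, against 97% over the others, and 7 members were below 90%.

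Clusters of 3L without a bound gene were Cpr72Ea to Cpr72Ec, highest 281 at Cpr72Ea, Cpr76Ba to Cpr76Bd, highest 253 at Cpr76Bc, and Cpr78Ca to Cpr78Cc, highest 305 at Cpr78Cc. Cpr72Ec, which encodes a protein of the corneal lens, had no ranked summit, and Cpr66D, another lens protein gene, reached 222. Among single Cpr genes the highest unbound value was 350, at Cpr67B, from an intergenic summit 405 bp upstream. The 27 single genes thus had 1 bound member, Cpr73D, and the 2 pairs had none.

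The summits that did not pass differed from those that did in where they lay and in their base composition. For the 68 cuticle genes whose best summit was below 830, that summit lay in a coding exon in 31 cases (45.6%), and the sequence within 50 bp of it had 51.8% ± 9.48 GC (SD, n = 68 genes). For the 7 at 830 or more none was in a coding exon, and GC was 30.7% ± 7.12 (SD, n = 7). The GC ranges overlapped, from 29.7% to 69.3% below 830 and from 20.8% to 40.6% above.

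**Figure D5:**
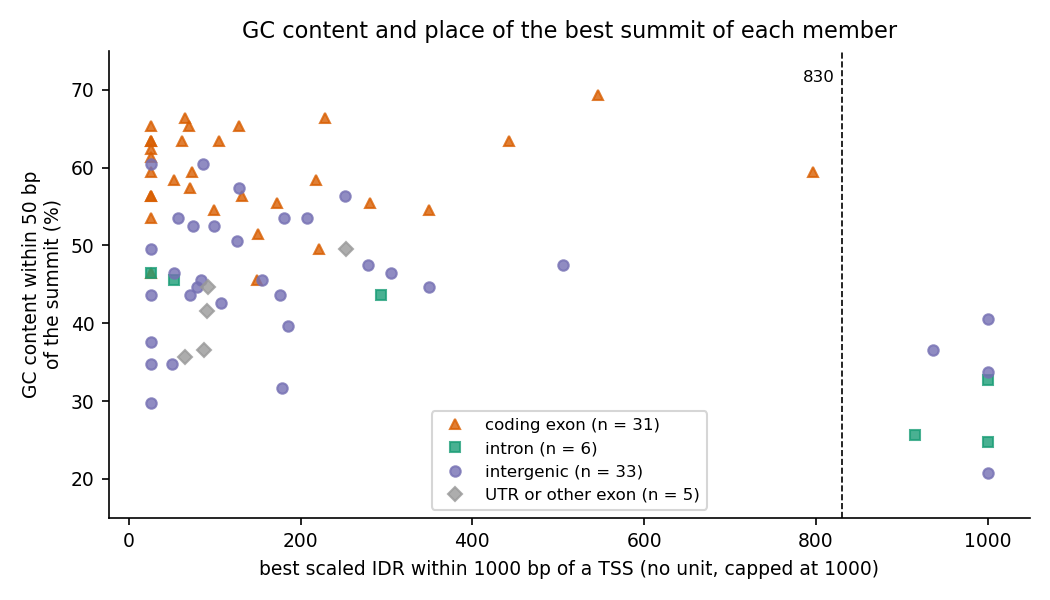
GC content within 50 bp of the best replicate-pair summit (vertical axis, percent) against its scaled IDR (horizontal axis, no unit, capped at 1000) for the 75 Cpr and Twdl genes that have one, with symbols for the annotation at the summit. Summits in coding exons all lie left of the dashed line at 830, and the 7 to its right have 20.8% to 40.6% GC.

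The same division held at other genes. Below 830 the best summits of the 6848 other genes lay in coding exons in 40.9% and had 47.9% ± 10.4 GC (SD), and at 830 or more these were 0.869% and 33% ± 10.2 (SD, n = 3796 genes). Over all 185 ranked summits near cuticle genes, 41.1% lay in coding exons and 5.41% in 5' UTRs, against 32.4% and 13.8% of the 21808 near other genes. The cuticle genes are short, with a median length of 1090 bp against 2180 bp. The part of gene length and base composition in the low share of bound genes was not tested.

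Promoter type moved with binding across the genome. Among other coding genes with TATAAA 45 to 16 bp upstream, 206 of 1408 were bound (14.6%), against 28.2% of those without it. Among those with TATCGATA in the promoter window 39.5% were bound, and among those with GGTCACAC 39.4%. Of the cuticle genes 3 of 58 with TATAAA at that place were bound (5.17%) and 4 of 37 without it (10.8%). The part of promoter type in the difference between the cuticle genes and the others was not tested. Restricting both sides to genes with 1 annotated TSS gave 5 of 87 (5.75%) against 20.9%, a comparison added after the data were seen.

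Genes that make and regulate the cuticle were set beside its structural genes. Of the coding genes outside Cpr and Twdl, 26.8% were bound and 76.7% had a ranked summit. Other cuticle protein families, such as Lcp, Ccp84A and obst genes and Tb, a Tweedle gene whose symbol lies outside the rule, had 1 bound of 43 (2.33%, interval 0.0589 to 12.3), with a ranked summit at 65.1%. That gene was Edg91, an ecdysone-dependent gene, with a score of 114. Genes of chitin synthesis, turnover and matrix assembly had 5 bound of 29 (17.2%, interval 5.85 to 35.8, which contains 26.8%). Those were the chitinase genes Cht11 (score 416) and Cht7 (398), the imaginal disc growth factor gene Idgf2 (321), mmy (151), whose enzyme makes the UDP-GlcNAc used for chitin, and cyst (83.9). The list took in cyst by its symbol although it encodes no chitin enzyme, and without it 4 of 28 were bound (14.3%).

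The list of regulators and crosslinking or pigment genes had 8 bound of 17 (47.1%, interval 23 to 72.2), an interval that contains the 26.8% of the coding genes outside Cpr and Twdl. Split by role after the values were seen, 7 of 10 regulators were bound (70%, interval 34.8 to 93.3). Of the crosslinking or pigment genes 1 of 7 was bound (14.3%, interval 0.361 to 57.9). These intervals overlap. Because the split followed the values, no contrast between roles, or of either role with the other coding genes, is drawn from it. The bound genes were vri (251), usp (223) and EcR (148), of which usp and EcR together encode the ecdysone receptor heterodimer, grh (139), which drives epidermal barrier genes, Hr38 (137), ftz-f1 (127), the dopa decarboxylase gene Ddc (84.7), whose product is used to harden cuticle, and rib (83.7). The lists were assembled by symbol, are small and differ in gene length and number of starts, and no test was made between them.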

How the data were processed

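ChIP-seq peak lists of 2 replicates were used. Per the deposited readme files, the authors ranked and thresholded peaks on dm6 by IDR and gave 2 scores per peak, the scaled IDR and a peak score without a unit. The deposited −log10 q value of each peak was read but supports no number here. No source used here names the aligner or the peak caller, and read depth is unknown. The 16 per-replicate columns of the series' ranked lists were not used. Summits were set against all TSSs of Ensembl 115 genes. The RefSeq genome of the same build supplied sequences, and all 95 genes had the same start and end in its gene table. Scores of a replicate come from the summit of its own list within 200 bp.

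There is 1 group, so no test between conditions was made, and shares are given with exact 95% intervals. The genes, lists and rules were chosen with earlier results of these data known. Named genes are bound members, members 1000 to 2000 bp from a conservative summit, the best member of each cluster of 3 or more, the 5 highest unbound members, bound genes of the other lists and nearest genes. Other genes were named after their values were seen. Alternatives varied window, peak list, threshold, replicate, TSS choice, assignment, gap and promoter window. The window step was tested on simulated data. Tables were made in pandas 2.3.3 with numpy 2.4.6 under Python 3.11.15, intervals with scipy 1.17.1 and plots with matplotlib 3.10.9.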

Additional observations from a re-analysis of the deposited data

How the results depend on the processing

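The share of bound cuticle genes was 7.37% against 26.8% of other coding genes, and it stayed below theirs under every alternative run. It was 2.11% with a 500 bp window (2 genes, against 22.9%) and 14.7% with a 2000 bp window (14 genes, against 33.3%). With 1 replicate left out it ranged from 4.21% without replicate 1 (against 22%) to 5.26% without replicate 2 (against 23.6%). The other thresholded list gave 6.32% against 28.1%, a scaled IDR of 1000 gave 5.26% against 24.9%, and at least 540 gave 9.47% against 31%. The 5' end of the gene record gave 6.32% against 24.6%, and assignment to the nearest TSS gave 5.26% against 19.7%. Genes with 1 annotated TSS, an alternative chosen after seeing the data, gave 5.75% against 20.9%. Of the 7 bound genes, Cpr65Ea was bound under all 10 alternatives applied to single genes, which leave out the restriction to 1 TSS, and Cpr67Fa1 under 6.

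The share with any ranked summit, 78.9% against 76.7%, ranged with 1 replicate left out from 51.6% without replicate 1 (65.8% of the others) to 72.6% without replicate 2 (68.9%), so its order relative to other genes depends on the replicate. Over the other alternatives it ran from 69.5% with a 500 bp window (64.6% of the others) to 88.4% with a 2000 bp window (83.8%). The number of groups with a bound gene was 6 with gaps of 10000, 20000 and 50000 bp. TATAAA was in 76.8% of cuticle promoters against 51% of the others. From 100 bp before to 50 bp after a start it was 73.7% against 27.9%, and at the gene's 5' end only 72.6% against 45.6%. The size of this contrast thus depends on the window. Peak lists set the limits: depth is unknown, absence of a summit is absence from a list, and embryos without the fusion were not analysed here. No paired analysis was possible because the samples form 1 group.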
